A study of Mus musculus with 12 samples.

Results

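Wild type cells labelled as vascular smooth muscle of mouse aorta were compared between day 14 and day 1 of culture in a calcifying medium. The comparison took the 3 wild type (WT) libraries of each day, 6 of the 12 libraries of the series, over the 26728 gene names found in the tables of both days. Of these names, 15973 had enough reads to be tested. The other 6 libraries came from NR4A3 knockout (KO) cells at the same days, and they were used for the common estimate of spread and for a comparison of the change between days.

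The labels describe primary cells of aorta, called VSMC, with genotype WT or NR4A3KO. Per the protocols every group grew in DMEM/F12 with serum and antibiotics plus 10 mM beta-glycerophosphate (beta-GP), an organic phosphate used to drive mineral deposition, whereas the label for treatment says β-GP for KO and none for WT. WT at day 1 and WT at day 14 therefore share genotype, medium and treatment label, and differ by the day and by the table that holds their counts. The day of culture thus coincides with the table, a possible batch, and their parts cannot be told apart in any value that follows. The labels used here name no strain, age or animal for a library. Nothing in them says that the 3 replicates of a group came from separate cultures or animals, so the p-values reflect no more than how these libraries vary, which may be technical.

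Smooth muscle cells of the vessel wall hold a set of contractile proteins that is lost in part when the cells are placed in culture, where they divide, move and deposit matrix. In phosphate-rich medium such cells can take on traits of bone-forming cells, among them tissue-nonspecific alkaline phosphatase (Alpl), which removes the mineral inhibitor pyrophosphate. NR4A3 is an orphan nuclear receptor of the NR4A family, whose genes are switched on within a short time by serum, growth factors and stress. The comparison asks which of these programmes differ in WT cells between an early and a late day in that medium.

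Levels are given as CPM, each gene's count as a share of its TMM-scaled library in the usual per-million unit, for replicates 1, 2 and 3 in that order. Differences are given as the log2 fold change of day 14 over day 1 ± its standard error, from edgeR's quasi-likelihood test, and a gene was called at a Benjamini-Hochberg adjusted p below 0.05 over all genes tested. Rose and fell are used for called genes only. Library totals ranged from 24929624 to 30105118 counts in WT at day 1 and from 13848199 to 19519654 at day 14.

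The 3 day 1 libraries differed little from one another, and replicate 1 of day 14 stood apart from the other day 14 libraries. The chi-square per gene between replicates was 2.91 to 3.58 at day 1. At day 14 it was 9.2 between replicates 2 and 3, and 36.2 and 51.5 in the pairs that hold replicate 1. It also held transcripts of heart muscle: Myh6, the cardiac myosin heavy chain, had 255 counts in it and 0 in every other WT library, and Actc1 and Mb had 135 and 128 counts against 0. A name annotated as ribosomal RNA, CT010467.1, stood at 273, 157 and 200.3 CPM at day 1 against 7451, 5068 and 2701 CPM at day 14, and it was among the 5 largest rises in CPM. Mitochondrially encoded transcripts took 4.39% ± 0.13 of the counts at day 1 and 3.35% ± 0.08 at day 14 (SD, n = 3). The part of this library, and of the ribosomal and mitochondrial shares, in the results below was not tested beyond leaving out 1 library at a time, and calls of named genes that this ended are given beside their values.

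Across genes, the WT libraries of day 14 were closer to the KO libraries of day 1 than to the WT libraries of day 1. The correlation of log2 CPM had a median of 0.974 over the 9 pairs with KO at day 1 (0.962 to 0.981), against 0.922 over the 9 pairs with WT at day 1 (0.914 to 0.927). Within WT at day 14 the median was 0.975, and within WT at day 1 it was 0.994. The KO libraries of day 14 were likewise closer to WT at day 1 than to KO at day 1. Their medians were 0.936 (0.935 to 0.939) with WT at day 1 and 0.921 (0.919 to 0.923) with KO at day 1. These are correlations across genes, which are not independent replicates. The labels are used as given, and an exchange of tables or columns between genotypes or days remains possible, which would change what every value of day 14 against day 1 compares. It was not tested beyond the level of the targeted gene. Nr4a3, the targeted gene, was lower in KO than in WT at each day, at 2.08 ± 0.235 against 4.25 ± 0.385 CPM at day 1, and 49.6 ± 13.6 against 237 ± 19.6 CPM at day 14 (mean ± SD, n = 3).

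Of the smooth muscle markers, Tagln, Myh11 and Cnn1 were near 0 at both days, whereas Acta2 and Des were abundant. The low markers are at odds with the labelled cell type, but contractile genes are also lost in part in culture. Skeletal muscle factors were present in every library. Whether the cells are as labelled was not tested further, and smooth muscle is used here as the label's name. Tagln, the actin-binding SM22, had 0, 1 and 1 counts at day 1 against 3, 0 and 2 counts at day 14, too few to be tested. Myh11, the smooth muscle myosin heavy chain, stood at 0.0419, 0.177 and 0.0397 CPM at day 1 against 0.5, 0.628 and 0.594 CPM at day 14. Cnn1, calponin, stood at 0.21, 0.283 and 0.278 CPM at day 1 against 0.65, 0.977 and 0.247 CPM at day 14. Acta2, smooth muscle actin, and Des, desmin, were abundant. Acta2 stood at 255, 283 and 292 CPM at day 1 against 538, 722 and 727 CPM at day 14, and Des at 647, 636 and 663 CPM at day 1 against 533, 895 and 1011 CPM at day 14. Myocd, the cofactor that drives the contractile programme, had 0, 0 and 0 counts at day 1 against 19, 3 and 6 counts at day 14. Ptprc, the surface protein of all white blood cells, had 0, 0 and 0 counts at day 1 against 1, 1 and 0 counts at day 14, and Pecam1, of endothelium, stayed at or below 1 CPM in each WT library. Of the 10 smooth muscle markers listed, 7 could be tested, of which 3 were higher and 2 lower at day 14, and 5 were higher without replicate 3 of day 14.

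Between day 1 and day 14, 8286 of the 15973 genes tested differed in WT (51.9%), 4121 of them higher (25.8%) and 4165 lower (26.1%). Changes of at least 2-fold numbered 1877 among the higher and 1276 among the lower genes, and the median log2 fold change of all genes was 0.0. For 7936 of the 8286 called genes the 3 day 1 values and the 3 day 14 values did not overlap. Non-overlap was thus usual for a called gene, and it was not counted among genes without a call. The higher genes made up 49.7% of the calls here, and 62.7% when scaled by library size alone, a scaling that shifts the median gene by 0.13 (log2). Without replicate 1 of day 14, 9051 genes were called. These shares are the background for every count of list members below.

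**Figure D1:**
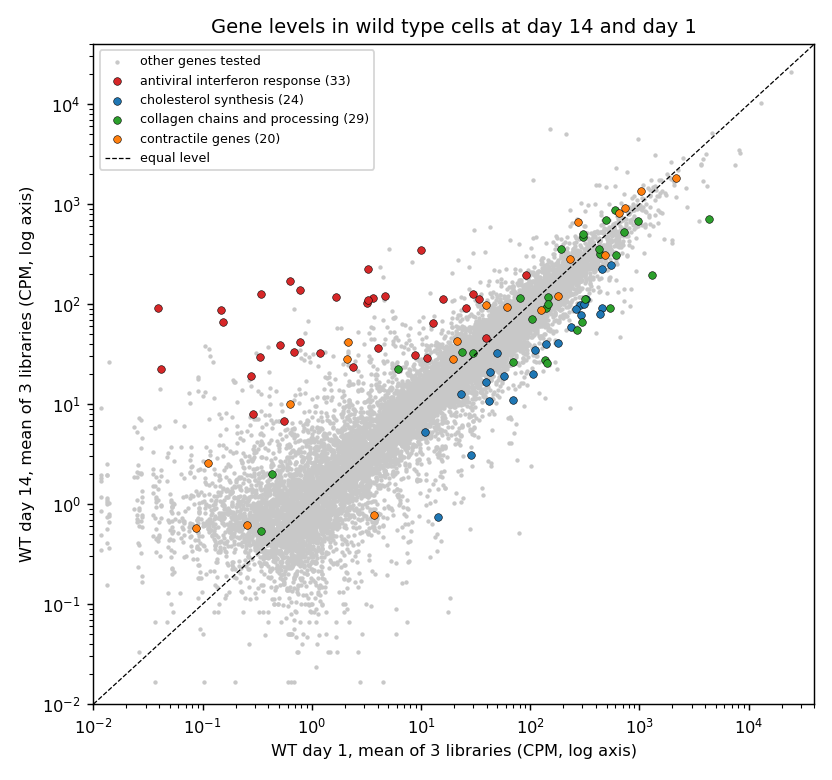
Mean level of each tested gene in WT at day 1 (x axis) and day 14 (y axis), in CPM on log axes, means of 3 libraries; genes with a mean of 0 at either day are not drawn. Coloured points are members of 4 lists: all 33 interferon genes lie above the line of equal level and all 24 cholesterol synthesis genes below it.

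Genes of the antiviral interferon response rose as a whole. Interferons are secreted alarm proteins that act through transcription factors such as Stat2 and Irf9 and switch on a large set of antiviral genes. All 33 of the genes listed for this response were tested, and 33 were higher and 0 lower, and the median log2 fold change was 5.0, where 25.8% of all genes were higher. Their CPM summed to between 308 and 318 in the day 1 libraries and between 2611 and 3230 at day 14. Ifit1, which binds foreign RNA, stood at 3.19, 3.5 and 3.09 CPM at day 1 against 259, 240.2 and 182 CPM at day 14 (log2 fold change 6.12 ± 0.17, adjusted p = 9.75e-13). Bst2, tetherin, which holds budding virus at the cell surface, stood at 10.4, 9.77 and 9.91 CPM at day 1 against 391, 352 and 302 CPM at day 14 (log2 fold change 5.12 ± 0.19, adjusted p = 4.78e-11). The 3 day 14 values of both genes lay more than 10-fold above those of day 1.

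Several of these transcripts were close to absent at day 1. Oas2, a synthetase that senses double-stranded RNA, had 1, 1 and 1 counts at day 1 against 1648, 1448 and 1901 counts at day 14, a ratio of day 14 to day 1 of 2363 with an interval of 808 to 11460 from counting error. Usp18, a protease that removes ISG15 from proteins, stood at 0.21, 0.0354 and 0.198 CPM at day 1 against 110.1, 81 and 69.5 CPM at day 14 (log2 fold change 9.19 ± 0.37, adjusted p = 1.67e-10). Oas1a stood at 0.21, 0.212 and 0.0397 CPM at day 1 against 91.6, 58.8 and 47 CPM at day 14 (log2 fold change 8.67 ± 0.38, adjusted p = 3.98e-10), although its reads may be split with the near-identical Oas1 copies. Ifi44 (8.05 ± 0.27), Ifit3 (7.46 ± 0.20), Trim30a (7.01 ± 0.21), Phf11d (6.17 ± 0.19) and Oasl2 (6.14 ± 0.21) were among the 10 largest rises of abundant named genes, those whose log2 CPM averaged 3 or more and whose names were not predicted or clone names. Isg15, the ubiquitin-like protein that gives the response its marker, stood at 3.82, 2.83 and 2.93 CPM at day 1 against 128, 99.3 and 79 CPM at day 14 (log2 fold change 5.0 ± 0.19, adjusted p = 2.56e-11). Irf7, a factor that drives interferon genes, stood at 3.69, 3.86 and 3.29 CPM at day 1 against 132, 108 and 105 CPM at day 14 (log2 fold change 4.99 ± 0.23, adjusted p = 5.26e-10). The smallest rises in the list were those of the transcription factors Irf1 (0.22 ± 0.08) and Stat2 (1.10 ± 0.15). The call of Irf1 was lost without replicate 1, 2 or 3 of day 1 (adjusted p = 0.0986, 0.0883 and 0.126), without replicate 2 of day 14 (0.106) and with no filter on low counts (0.164). Ifnb1, interferon beta itself, had 0, 2 and 0 counts at day 1 against 76, 120 and 113 counts at day 14, a ratio of 219 with an interval of 60.2 to 1818 from counting error, with a fitted log2 fold change of 7.52 and of 9.81 without replicate 2 of day 1.

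The promoters of 26 of the 33 interferon genes were in the RefSeq table of GRCm38.p6 (250 bases before to 50 after the start), a later build than the mm9 named for the counts. The core of the interferon-stimulated response element, GAAANNGAAA on either strand, was found in 16 of the 26 (61.5%), against 3.99% of all 27025 promoters in the table, 4.89% of those of the genes called higher and 3.38% of those called lower. A match describes letters, not a site in use. The following stretches of 60 bases all lie before the gene's start and are written 5′ to 3′ along the gene's strand, with the core or its reverse complement in capitals, which run on where copies overlap. They are shown as examples of the core beside rises of differing size, in Stat2 (log2 fold change 1.10), Gbp2 (3.31), Isg15 (5.0), Bst2 (5.12) and Ifit1 (6.12), and do not include the largest rises of the list.
Stat2, chr10:128270251-128270310, plus strand: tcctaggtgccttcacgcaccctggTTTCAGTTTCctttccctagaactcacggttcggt
Gbp2, chr3:142620579-142620638, plus strand: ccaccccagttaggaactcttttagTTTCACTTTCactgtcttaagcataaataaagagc
Isg15, chr4:156200850-156200909, minus strand: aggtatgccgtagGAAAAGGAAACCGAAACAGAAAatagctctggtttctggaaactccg
Bst2, chr8:71537562-71537621, minus strand: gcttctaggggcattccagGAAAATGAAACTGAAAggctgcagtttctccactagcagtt
Ifit1, chr19:34640779-34640838, plus strand: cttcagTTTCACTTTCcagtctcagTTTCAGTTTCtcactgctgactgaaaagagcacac
The core of Stat2, the gene with the smallest rise of these 5, lies 213 to 222 bases before the start, and that of Gbp2 50 to 59 bases before it. In Ifit1 the nearer of its 2 copies lies 76 to 85 bases before the start.

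Antigen presentation moved with the interferon genes. MHC class I molecules show peptides, cut by the immunoproteasome and carried by the Tap transporter, to T cells. Of 13 genes tested, 11 were higher and 0 lower, and the median log2 fold change was 1.82, with H2-T23 and Tapbp without a call. Tap1 stood at 3.52, 3.75 and 3.81 CPM at day 1 against 46.5, 37.1 and 50.6 CPM at day 14 (log2 fold change 3.60 ± 0.14, adjusted p = 1.55e-11). The class I heavy chain H2-K1 stood at 30.2, 30.1 and 32.1 CPM at day 1 against 164, 99.8 and 127 CPM at day 14 (log2 fold change 2.08 ± 0.14, adjusted p = 7.59e-09), where reads shared with other H2 genes may be split. Nlrc5, the transactivator of class I genes, stood at 8.85, 8.99 and 6.62 CPM at day 1 against 38.9, 43.1 and 35.7 CPM at day 14 (log2 fold change 2.26 ± 0.12, adjusted p = 6.35e-10). The immunoproteasome subunits Psmb8 (3.91 ± 0.35) and Psmb9 (4.36 ± 0.41) and the light chain B2m (1.88 ± 0.11) rose too.

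Chemokines and inflammatory genes went both ways. Of 27 tested, 11 were higher and 9 lower, and the median log2 fold change was 0.37. Ccl5, a chemokine for T cells, stood at 2.14, 1.98 and 1.43 CPM at day 1 against 60.4, 52.6 and 58.5 CPM at day 14 (log2 fold change 4.95 ± 0.20, adjusted p = 2.86e-11). Ccl8 (2.01 ± 0.13) and the interleukin-1 antagonist Il1rn (1.65 ± 0.10) rose with it. Il33, an alarm cytokine of the nucleus, fell in every library, at 687, 700.2 and 676 CPM at day 1 against 41.2, 102 and 107 CPM at day 14 (log2 fold change -3.05 ± 0.31, adjusted p = 6.82e-06). The cyclooxygenase Ptgs1 stood at 619, 637 and 642 CPM at day 1 against 126, 128 and 138 CPM at day 14 (log2 fold change -2.28 ± 0.08, adjusted p = 8.23e-12), and its groups lay far apart. Of 23 acute phase and complement genes, 8 were higher and 7 lower, and the median log2 fold change was -0.16. Cp, the copper carrier ceruloplasmin, was among the 10 largest falls, at 684, 653 and 660.1 CPM at day 1 against 56.1, 35.6 and 50.5 CPM at day 14 (log2 fold change -3.81 ± 0.14, adjusted p = 1.42e-11). Complement components went both ways. C3, the central component, fell, at 127, 116 and 120.4 CPM at day 1 against 29.7, 60.7 and 54.2 CPM at day 14 (log2 fold change -1.33 ± 0.21, adjusted p = 1.25e-04), as did the complement inhibitor Serping1 (-3.60 ± 0.43). C4b and Cfb rose on few reads. C4b had 4, 1 and 3 counts at day 1 against 43, 18 and 27 counts at day 14 (log2 fold change 3.85 ± 0.51). Cfb had 0, 1 and 1 counts at day 1 against 15, 13 and 7 counts at day 14, a ratio of 24.8 with an interval of 6.38 to 213 from counting error.

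Contractile genes rose more often than they fell, from very different levels. Of 20 tested, 13 were higher and 5 lower, and the median log2 fold change was 0.57. Acta2 (log2 fold change 1.26 ± 0.11, adjusted p = 2.0e-07) rose in all 3 libraries, least in replicate 1 of day 14. Myl9, the regulatory light chain of smooth muscle myosin, stood at 1.89, 2.37 and 2.22 CPM at day 1 against 27.2, 52.4 and 45.1 CPM at day 14 (log2 fold change 4.25 ± 0.24, adjusted p = 1.71e-09). Actg2, enteric actin, stood at 1.97, 2.16 and 2.14 CPM at day 1 against 20.6, 34.5 and 29.8 CPM at day 14 (log2 fold change 3.75 ± 0.21, adjusted p = 1.10e-09). Lmod1, an actin nucleator of smooth muscle, stood at 0.713, 0.495 and 0.674 CPM at day 1 against 3.65, 12.8 and 13.9 CPM at day 14 (log2 fold change 4.0 ± 0.46, adjusted p = 7.03e-06). In all 3 genes the day 14 values lay above those of day 1, with replicate 1 the lowest of day 14. Myh11 rose by 2.59 ± 0.63 (adjusted p = 0.00282; 3.61 without replicate 2 of day 1) but stayed below 1 CPM. Cnn1 did not pass (log2 fold change 1.21 ± 0.54, adjusted p = 0.0731) and did so without replicate 3 of day 14 (adjusted p = 0.0165). Des did not pass either (log2 fold change 0.33 ± 0.16, adjusted p = 0.114), and its adjusted p was 1.37e-06 without replicate 1 of day 14. The genes that fell were Kcnmb1 (-2.21 ± 0.27), a subunit of the large-conductance potassium channel, Vcl, vinculin (-0.63 ± 0.10), Tpm2 (-0.56 ± 0.09), Smtn (-0.53 ± 0.15) and Flna (-0.23 ± 0.09). The fall of Flna held in no more than part of the settings: it lost its call without any one library except replicate 1 of day 14 (adjusted p = 0.0754 to 0.181) and with library size alone (0.383). It was also lost with size factors of the DESeq2 kind (0.0524) and with a filter of 1 CPM (0.0706). With the WT libraries alone in the fit, Flna (0.0689) and Smtn (0.0627) both lost their calls. Because RNA was taken from whole cultures, more RNA per cell and more cells that hold it cannot be told apart, here and below.

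A CArG box, the site of the serum response factor, was found in the promoters of 2 of 17 contractile genes in the table, Myl9 and Vcl (11.8%, against 1.81% of all promoters). The box of Myl9 is shown because that gene is among the larger rises of the list, and it lies 152 to 161 bases before the start.
Myl9, chr2:156775278-156775337, plus strand: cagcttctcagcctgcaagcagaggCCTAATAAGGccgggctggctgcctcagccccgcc
Vcl, with the same kind of box, fell. Of the transcription factors and cofactors of smooth muscle, 14 were tested, and 4 were higher and 6 lower, and the median log2 fold change was -0.15. Srf (0.65 ± 0.09), the factor that binds this box, and Klf5 (0.73 ± 0.10) rose. Mef2c, a muscle transcription factor, stood at 20.8, 21.8 and 19.6 CPM at day 1 against 6.1, 3.77 and 3.61 CPM at day 14 (log2 fold change -2.20 ± 0.22, adjusted p = 6.91e-07). Gata6, a factor of the mature smooth muscle state, stood at 2.1, 1.91 and 1.51 CPM at day 1 against 0.25, 0.209 and 0.247 CPM at day 14 (log2 fold change -2.92 ± 0.47, adjusted p = 9.96e-05). Both fell in all 3 libraries.

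Skeletal muscle factors were present in these cultures. Myf5, a determination factor of skeletal muscle, stood at 72.7, 79.3 and 79.3 CPM at day 1 against 127, 117 and 122 CPM at day 14 (log2 fold change 0.66 ± 0.11, adjusted p = 8.44e-05). Myod1, the master factor of that lineage, stood at 3.52, 3.11 and 3.33 CPM at day 1 against 37.9, 61.6 and 55.9 CPM at day 14 (log2 fold change 3.96 ± 0.21, adjusted p = 5.16e-10). Neither pair of groups overlapped, and of the 7 skeletal and cardiac markers tested these 2 were the ones called, while 1 of the other 5 was called lower without replicate 1 of day 14. The rise of Myod1 was seen in replicates 2 and 3 of day 14 as well as in replicate 1, the library with heart muscle transcripts. Xirp1, an actin-binding protein of striated muscle, stood at 1.55, 1.45 and 2.14 CPM at day 1 against 85.7, 48 and 40.6 CPM at day 14 (log2 fold change 5.08 ± 0.29, adjusted p = 7.79e-09), highest in that library.

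**Figure D2:**
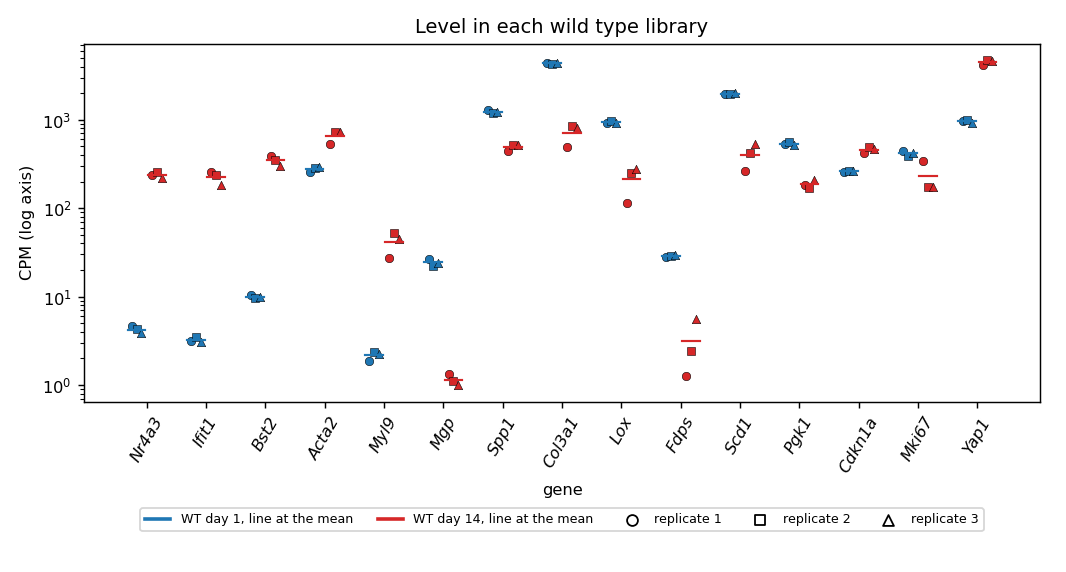
CPM (log axis) of 15 genes in each of the 6 WT libraries, with blue points for day 1, red points for day 14, a symbol for each replicate and a line at each mean. In all of them but Mki67 the groups are clearly apart; for Mki67 the 338 CPM of replicate 1 at day 14 lies near the 389.7 CPM of the lowest day 1 library.

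Genes of mineral deposition changed without a common direction. Alpl had 1, 0 and 2 counts at day 1 against 164, 225 and 382 counts at day 14, a ratio of 365 with an interval of 124 to 1771 from counting error. Its fitted log2 fold change was 8.30 (adjusted p = 1.47e-09), and 7.71 and 9.11 without replicates 2 and 3 of day 1. Its level at day 14 was 8.2, 15.7 and 18.9 CPM. Runx2, the transcription factor of osteoblasts, stood at 145, 157 and 142 CPM at day 1 against 83.8, 123 and 144 CPM at day 14 and was not called (log2 fold change -0.34 ± 0.14, adjusted p = 0.0525), though it was called as lower without replicate 3 of day 14 (adjusted p = 0.00416). Msx2, a homeobox factor of bone, stood at 0.461, 0.212 and 0.595 CPM at day 1 against 3.45, 3.14 and 6.68 CPM at day 14 (log2 fold change 3.40 ± 0.49, adjusted p = 3.42e-05). The bone phosphatase Phospho1 stood at 0.629, 0.708 and 0.317 CPM at day 1 against 1.15, 0.977 and 1.63 CPM at day 14 (log2 fold change 1.18 ± 0.41, adjusted p = 0.0242), a call lost with no filter on low counts and without replicate 1 or 3 of day 1 or replicate 3 of day 14 (adjusted p = 0.0534, 0.122 and 0.103). Sox9, the factor of cartilage, stood at 21.4, 20.6 and 21.2 CPM at day 1 against 44.6, 26.2 and 25.4 CPM at day 14 (log2 fold change 0.61 ± 0.21, adjusted p = 0.0231). Its call was lost with no filter on low counts (0.0705), without replicate 1 of day 14 (adjusted p = 0.0944) and without replicate 1, 2 or 3 of day 1 (0.0566, 0.0683 and 0.0587). Of 17 bone and cartilage genes tested, 6 were higher and 3 lower, with a median log2 fold change of -0.08, and 5 were lower without replicate 1 of day 14.

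Spp1, osteopontin, a secreted phosphoprotein that also restrains crystal growth, stood at 1304, 1187 and 1210 CPM at day 1 against 446, 513 and 517 CPM at day 14 (log2 fold change -1.33 ± 0.11, adjusted p = 7.92e-08). It was the most abundant transcript of the bone list at both days. Mgp, matrix Gla protein, an inhibitor of vessel calcification, stood at 26.6, 22.3 and 24.2 CPM at day 1 against 1.35, 1.12 and 0.99 CPM at day 14 (log2 fold change -4.39 ± 0.21, adjusted p = 1.59e-10). The values of Mgp at day 14 were all below 1.5 CPM, from above 20 CPM in each day 1 library. Ank, which exports pyrophosphate, stood at 430.3, 431 and 433 CPM at day 1 against 117, 146 and 146 CPM at day 14 (log2 fold change -1.66 ± 0.09, adjusted p = 5.42e-10). Enpp1, which makes extracellular pyrophosphate from ATP, stood at 9.73, 9.06 and 9.6 CPM at day 1 against 2.5, 8.72 and 11.4 CPM at day 14 and was not called (log2 fold change -0.34 ± 0.34, adjusted p = 0.426). Without replicate 1 of day 14 its difference was 0.12 (adjusted p = 0.385), and without replicate 3 it was -0.81 (0.0404). Tnfrsf11b, osteoprotegerin, a decoy receptor that restrains bone resorption, stood at 3.06, 2.58 and 2.18 CPM at day 1 against 5.25, 3.56 and 3.86 CPM at day 14 (log2 fold change 0.70 ± 0.28, adjusted p = 0.0452). That call was lost without any one library of day 1 (adjusted p = 0.0532 to 0.157) with no filter on low counts (0.0628) or without replicate 1 of day 14 (0.126). Bmp7, a bone morphogenetic protein placed in the list for its known restraint of vascular calcification, rose (4.99 ± 0.32). Of the 12 inhibitors and pyrophosphate genes tested, 3 were higher and 7 lower, and the median log2 fold change was -0.74, a larger share of falls than the 26.1% of all genes.

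Among the 7 genes of phosphate transport and the stanniocalcins, 2 were higher and 3 lower. Phex, a membrane peptidase of phosphate balance known from bone, showed the largest fall of all abundant named genes, at 94.4, 109 and 102 CPM at day 1 against 2.95, 1.47 and 2.82 CPM at day 14 (log2 fold change -5.35 ± 0.19, adjusted p = 8.23e-12). Stc1, a secreted glycoprotein that acts on calcium and phosphate transport, stood at 69.8, 77.3 and 81.1 CPM at day 1 against 1.15, 3 and 4.21 CPM at day 14 (log2 fold change -4.77 ± 0.37, adjusted p = 3.88e-07). Both were below 5 CPM in each day 14 library. The sodium-phosphate cotransporters differed little: Slc20a1 stood at 101, 105 and 103 CPM at day 1 against 119.7, 124 and 119.7 CPM at day 14 and was not called (log2 fold change 0.23 ± 0.10, adjusted p = 0.0511), while Slc20a2 rose (0.48 ± 0.09). Slc20a1 passed as higher without replicate 1 of day 14 (adjusted p = 0.0255), with the WT libraries alone in the fit (0.0107) and with library size alone (0.00304). It also passed with DESeq2 (0.0394), size factors of the DESeq2 kind (0.0401), limma-voom (0.0471) and a filter of 1 CPM (0.0313). The phosphate exporter Xpr1 fell (-0.59 ± 0.08). Without replicate 3 of day 1, 1 gene of this list was higher, since Stc2 (0.51 ± 0.18) lost its call (adjusted p = 0.0932), as it did without replicate 1 of day 14 (0.0948).

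BMP signals act through Smad1, Smad5 and Smad9 and switch on the Id genes. The Id genes rose: Id3 stood at 5.96, 4.35 and 5.91 CPM at day 1 against 80.3, 95.3 and 79.5 CPM at day 14 (log2 fold change 3.98 ± 0.17, adjusted p = 4.70e-11). Id1 (2.07 ± 0.17), Id2 (2.44 ± 0.16) and Id4 (4.72 ± 0.45) rose with it. Smad6, which restrains BMP signals, stood at 0.965, 1.17 and 1.23 CPM at day 1 against 11.3, 13.7 and 10.9 CPM at day 14 (log2 fold change 3.40 ± 0.23, adjusted p = 7.53e-09). The day 14 values of both lay at least 9-fold above the mean of day 1. Secreted antagonists of BMP went both ways. Grem1, gremlin, fell steeply, at 817, 826 and 794 CPM at day 1 against 97.1, 92.1 and 95.4 CPM at day 14 (log2 fold change -3.10 ± 0.10, adjusted p = 3.80e-12). Nog, noggin (5.75 ± 0.34), and Fst, follistatin (2.57 ± 0.27), rose from low levels at day 1. Of the 39 genes of TGF-beta and BMP signalling tested, 19 were higher and 7 lower, and the median log2 fold change was 0.19. Receptors and mediators went both ways. The BMP receptors Acvr1 (-0.69 ± 0.09), Bmpr1a (-0.43 ± 0.08) and Bmpr1b (-3.21 ± 0.44) fell, and the receptor Acvrl1 (2.34 ± 0.20) rose. The mediator Smad5 (-0.76 ± 0.06) fell, while Smad1 (0.62 ± 0.10) rose and Smad9 stood at 0.0839, 0.531 and 0.198 CPM at day 1 against 4.75, 8.24 and 5.49 CPM at day 14 (log2 fold change 4.42 ± 0.40, adjusted p = 2.03e-07).

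Extracellular matrix genes fell more often than they rose, and Fn1 and Col3a1 were among the 5 largest falls in CPM. Fn1, fibronectin, was the largest of all falls in CPM, at 8113, 8594 and 8312 CPM at day 1 against 2287, 3788 and 3720 CPM at day 14 (log2 fold change -1.35 ± 0.14, adjusted p = 1.74e-06). Col3a1, the chain of type III collagen, stood at 4381, 4244 and 4389 CPM at day 1 against 495, 846 and 805 CPM at day 14 (log2 fold change -2.60 ± 0.16, adjusted p = 5.53e-09). In both, replicate 1 of day 14 was the lowest library. Of 29 collagen chains and processing enzymes tested, 7 were higher and 17 lower, and the median log2 fold change was -0.46. Col6a3 stood at 1302, 1334 and 1310 CPM at day 1 against 179, 206 and 197 CPM at day 14 (log2 fold change -2.76 ± 0.09, adjusted p = 4.44e-12). Col6a1 fell as well (-2.55 ± 0.32). The fibrillar chain Col1a1 was not called, at 137, 157 and 140.1 CPM at day 1 against 75.3, 146 and 135 CPM at day 14 (log2 fold change -0.29 ± 0.19, adjusted p = 0.214). Of the chains of basement membrane collagen, Col4a1 rose, at 302, 307 and 294 CPM at day 1 against 396, 600.1 and 509 CPM at day 14 (log2 fold change 0.74 ± 0.12, adjusted p = 7.69e-05), as did Col4a2 (0.89 ± 0.12), while Col4a5 fell (-2.32 ± 0.11). Col11a1, a chain of cartilage fibrils, rose too (1.87 ± 0.25).

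Most crosslinking and elastic fibre genes fell as well. Lox, which crosslinks collagen and elastin, stood at 916, 974 and 915 CPM at day 1 against 114, 253 and 279.9 CPM at day 14 (log2 fold change -2.12 ± 0.25, adjusted p = 1.81e-05). Fbln5, which helps elastic fibres to form, stood at 11.5, 11.1 and 12.1 CPM at day 1 against 2.8, 2.58 and 3.12 CPM at day 14 (log2 fold change -2.02 ± 0.18, adjusted p = 1.44e-07). The groups of neither gene overlapped. Of the 18 genes of this list, 4 were higher and 11 lower, with a median log2 fold change of -0.74, and without replicate 2 of day 1 the higher genes numbered 2. The latent TGF-beta binding proteins Ltbp2 (0.92 ± 0.17) and Ltbp4 (0.92 ± 0.12) were among the rises. Of 30 proteoglycans and matricellular proteins, 6 were higher and 17 lower, and the median log2 fold change was -0.59. The small proteoglycans biglycan (Bgn, -1.99 ± 0.14) and decorin (Dcn, -1.02 ± 0.20) fell, as did the hyaluronan synthase Has1 (-2.39 ± 0.13). Ctgf, a matricellular target of YAP and TGF-beta, rose, at 12.4, 12.3 and 11.4 CPM at day 1 against 107, 150.3 and 129.8 CPM at day 14 (log2 fold change 3.42 ± 0.14, adjusted p = 4.21e-11), as did Postn, periostin (5.31 ± 0.47, and 6.0 without replicate 2 of day 1), and Tnxb, tenascin-X (1.85 ± 0.16).

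Among 25 matrix proteases and inhibitors, 7 were higher and 9 lower (28% and 36%, against 25.8% and 26.1% of all genes). Without replicate 1 of day 14, 11 were higher. Mmp10, a stromelysin, stood at 111, 121 and 105 CPM at day 1 against 575, 362 and 463 CPM at day 14 (log2 fold change 2.05 ± 0.14, adjusted p = 1.10e-08). Mmp3, the related stromelysin of the same gene cluster, fell, at 44.2, 43.1 and 44.3 CPM at day 1 against 14, 9.7 and 8.41 CPM at day 14 (log2 fold change -2.03 ± 0.19, adjusted p = 2.85e-07). Adamts7, a protease known for its part in smooth muscle migration, fell (-1.73 ± 0.20). Of 14 integrin subunits, 8 were lower and 1 higher, with a median log2 fold change of -0.46. Itgb3, the vitronectin receptor subunit, stood at 92.8, 95.9 and 91.2 CPM at day 1 against 11.9, 16.9 and 17.7 CPM at day 14 (log2 fold change -2.59 ± 0.15, adjusted p = 1.52e-09). Itgb8 (-2.06 ± 0.20) and Itga10 (-2.92 ± 0.29) fell too. The single subunit that rose was Itga11 (3.04 ± 0.78), and the higher subunits numbered 4 without replicate 1 of day 14 and 0 with the WT libraries alone in the fit, where Itga11 had too few reads to be tested.

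**Figure D3:**
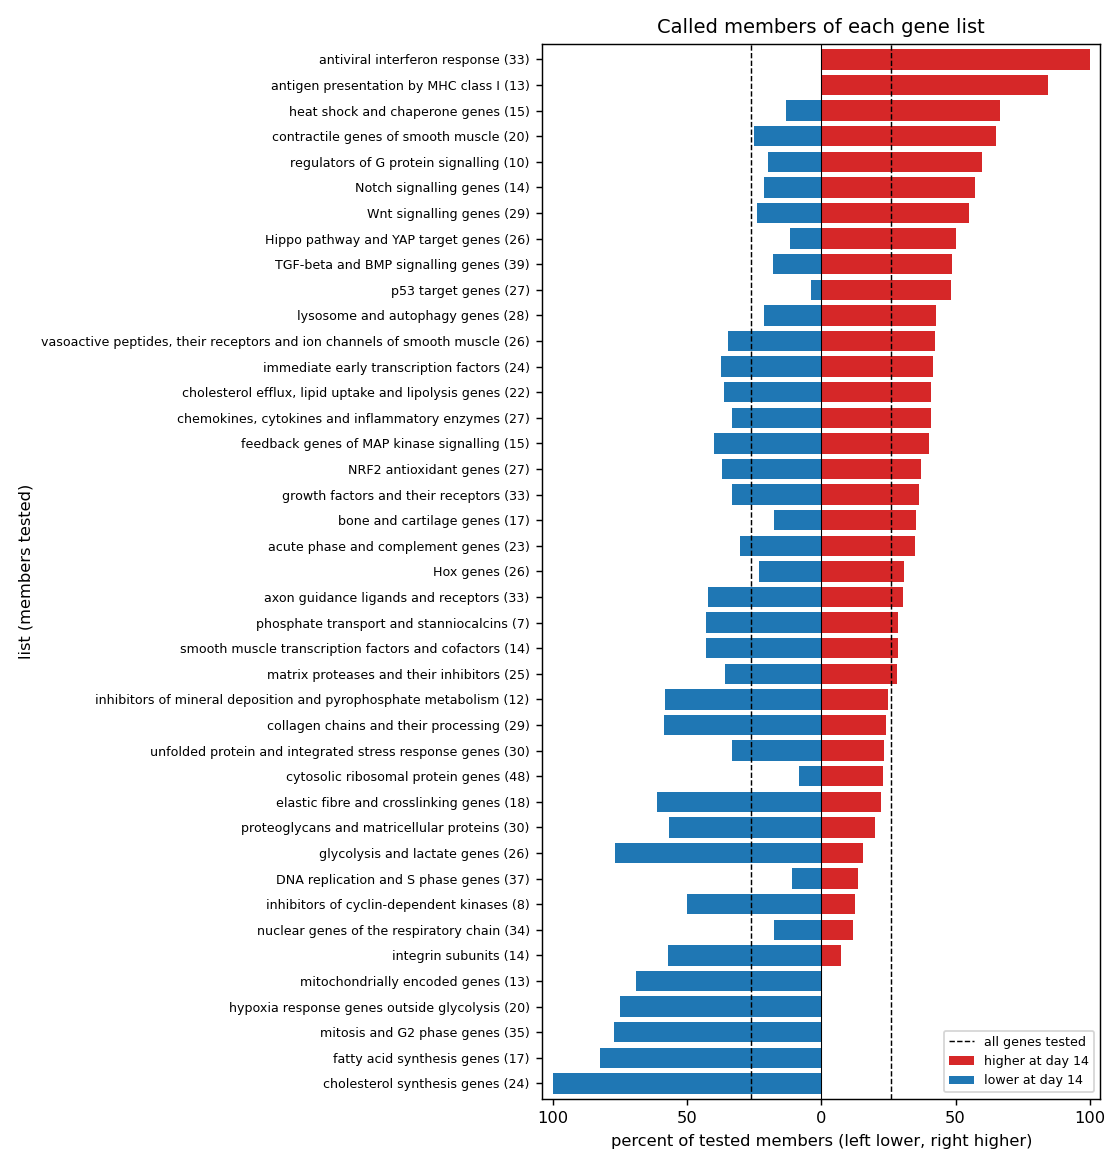
Share of the tested members of each gene list called higher (red, to the right) or lower (blue, to the left) at day 14 in WT, for 41 lists with at least 5 tested members, whose numbers stand in brackets. Dashed lines mark the 25.8% higher and 26.1% lower of all genes tested; the interferon list reaches 100% higher and the cholesterol synthesis list 100% lower.

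Every listed gene of cholesterol synthesis fell. Cells build cholesterol from acetyl-CoA through a chain of enzymes that the factor SREBP2, product of Srebf2, switches on together. All 24 listed genes were tested, and 0 were higher and 24 lower, against 26.1% of all genes lower, with a median log2 fold change of -1.66. The groups did not overlap in any of the 24, nor did they in 7936 of all 8286 called genes. Hmgcs1, the synthase of an early step, stood at 448, 438 and 425 CPM at day 1 against 50, 84.3 and 105 CPM at day 14 (log2 fold change -2.45 ± 0.21, adjusted p = 4.70e-07). Replicate 1 of day 14 was the lowest library and replicate 3 the highest of day 14. Fdps, which makes farnesyl diphosphate, showed the same order, at 27.9, 28.6 and 29.4 CPM at day 1 against 1.25, 2.44 and 5.64 CPM at day 14 (log2 fold change -3.18 ± 0.34, adjusted p = 3.16e-06, and -3.98 without replicate 3 of day 14). Srebf2 itself fell less (-1.14 ± 0.16).

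The core of the sterol regulatory element, TCACNCCAC on either strand, was found in 1 of the 16 cholesterol synthesis promoters in the table, that of Hmgcs1, against 1.44% of all promoters. It is shown, 129 to 137 bases before the start, as the single match in a list whose members all fell.
Hmgcs1, chr13:119690189-119690248, plus strand: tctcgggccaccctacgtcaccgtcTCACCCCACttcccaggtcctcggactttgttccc
The absence of these letters elsewhere says only that they are not in the window of 300 bases.

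Fatty acid synthesis fell with cholesterol synthesis, since 14 of 17 genes were lower and 0 higher (list median -1.24 on the log2 scale; 1 was higher without replicate 2 of day 14). Scd1 and Scd2, the desaturases that make monounsaturated fatty acids, were among the most abundant. Scd1 stood at 1960, 1962 and 2027 CPM at day 1 against 262, 421 and 532 CPM at day 14 (log2 fold change -2.29 ± 0.18, adjusted p = 1.57e-07), and Scd2 at 3483, 3517 and 3560 CPM at day 1 against 462, 701 and 878 CPM at day 14 (log2 fold change -2.37 ± 0.17, adjusted p = 3.85e-08). Both were lowest in replicate 1 of day 14. Elovl6, an elongase, stood at 168, 165 and 169 CPM at day 1 against 43, 45.4 and 44.1 CPM at day 14 (log2 fold change -1.92 ± 0.08, adjusted p = 4.56e-11). The synthase Fasn (-1.60 ± 0.13) and the factor Srebf1 (-1.52 ± 0.12) fell too. Genes of sterol efflux, lipid uptake and lipolysis went both ways, with 9 of 22 higher and 8 lower. The sterol exporters fell: Abca1 stood at 66.3, 67.2 and 68 CPM at day 1 against 1.95, 4.75 and 5.44 CPM at day 14 (log2 fold change -4.06 ± 0.26, adjusted p = 1.23e-08). Abcg1 (-2.61 ± 0.27) and the LXR target Mylip (-1.75 ± 0.11) fell with it. Lpl, the lipase that frees fatty acids from lipoproteins, rose, at 96.8, 106 and 112 CPM at day 1 against 318, 508 and 544 CPM at day 14 (log2 fold change 2.12 ± 0.16, adjusted p = 1.06e-07). Ppargc1a, a coactivator of mitochondrial biogenesis, stood at 9.56, 10.1 and 10.5 CPM at day 1 against 39.3, 39.4 and 42.4 CPM at day 14 (log2 fold change 2.0 ± 0.10, adjusted p = 4.54e-10), with all 3 day 14 values close to 40 CPM.

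Most genes of glycolysis and of the hypoxia response fell. Of the 26 glycolytic and lactate genes tested, 4 were higher and 20 lower, and the median log2 fold change was -0.81. Pgk1, phosphoglycerate kinase, stood at 529, 556 and 520.3 CPM at day 1 against 181, 168 and 209 CPM at day 14 (log2 fold change -1.52 ± 0.09, adjusted p = 3.08e-09). The aldolase Aldoa stood at 1546, 1619 and 1682 CPM at day 1 against 627, 863 and 969 CPM at day 14 (log2 fold change -0.98 ± 0.12, adjusted p = 4.70e-06). Ldha, which makes lactate, stood at 1118, 1121 and 1152 CPM at day 1 against 687, 532 and 570.3 CPM at day 14 (log2 fold change -0.92 ± 0.12, adjusted p = 1.82e-05). Each of the 3 was lower in every day 14 library than in any of day 1. Pfkl, the liver-type phosphofructokinase, stood at 203, 199.8 and 199 CPM at day 1 against 88.3, 144 and 165 CPM at day 14 (log2 fold change -0.60 ± 0.15, adjusted p = 0.00482), and Pfkp fell further (-1.49 ± 0.08). The glucose transporter Slc2a1 fell (-1.10 ± 0.09). The 4 that rose were Hk2 (0.72 ± 0.10), Ldhb (0.95 ± 0.18) and the pyruvate dehydrogenase kinases Pdk3 (0.43 ± 0.16) and Pdk4 (0.70 ± 0.19), of which Pdk3 lost its call without any one library except replicate 1 of day 14 (adjusted p = 0.0594 to 0.147). The call of Pdk3 was also lost with limma-voom (0.074) and with the WT libraries alone in the fit (0.1). Of 20 hypoxia genes outside glycolysis, 15 were lower and 0 higher (list median -0.85 on the log2 scale), and without replicate 1 of day 14 the higher genes numbered 1. Ero1l, an oxidase of protein folding, stood at 816, 836 and 832 CPM at day 1 against 180.3, 112 and 136 CPM at day 14 (log2 fold change -2.53 ± 0.16, adjusted p = 1.42e-08). Car9, the carbonic anhydrase used as a hypoxia marker, fell (-1.62 ± 0.17), as did the ligand apelin (Apln, -2.56 ± 0.26) and Hif1a, the oxygen-regulated factor (-0.86 ± 0.11).

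Transcripts of the mitochondrial genome fell in 9 of 13 tested, and 0 rose (list median -0.53 on the log2 scale). The cytochrome b transcript mt-Cytb was among the 5 largest falls in CPM, at 7345, 7708 and 7426 CPM at day 1 against 3400, 2030 and 2044 CPM at day 14 (log2 fold change -1.59 ± 0.15, adjusted p = 7.09e-07). The transcripts mt-Nd4 (-1.56 ± 0.09) and mt-Nd1 (-1.45 ± 0.11) fell by a like amount. In each of these the highest day 14 library was replicate 1. For most nuclear genes of the respiratory chain no difference was called: 4 of 34 were higher and 6 lower, with a median of 0.02. With library size alone the higher genes numbered 10 and the lower 2, and without replicate 2 of day 14 the higher numbered 7. Of 48 cytosolic ribosomal protein genes, 11 were higher and 4 lower (median 0.08), and with library size alone 23 were higher and 2 lower (2 also without replicate 2 of either day), so no direction is given for either list.

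Most genes of mitosis fell, and most of those of DNA replication were not called. Of 35 genes of G2 and mitosis tested, 27 were lower and 0 higher (list median -0.49 on the log2 scale). Mki67, the proliferation marker, stood at 441, 389.7 and 417 CPM at day 1 against 338, 176 and 175 CPM at day 14 (log2 fold change -0.86 ± 0.20, adjusted p = 0.00302). Ccnb2, a mitotic cyclin, stood at 81.8, 82.8 and 88 CPM at day 1 against 41, 34.4 and 41.1 CPM at day 14 (log2 fold change -1.11 ± 0.09, adjusted p = 5.69e-08). For Mki67 replicate 1 of day 14 lay between the other day 14 libraries and those of day 1. Cenpe, a motor of the centromere, fell too (-0.86 ± 0.13). Of 37 genes of replication and S phase, 5 were higher and 4 lower (median 0.01). These counts moved with the library left out: 18 were lower and 1 higher without replicate 1 of day 14, while 8 were higher and 1 lower without replicate 2 of that day, and 11 higher and 2 lower without replicate 3. Without replicates 1, 2 and 3 of day 1 the higher genes numbered 2, 1 and 1. The summed level of the S phase list ranged from 1351 to 1440 CPM over the day 1 libraries and from 1218 to 2001 CPM over those of day 14.

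Of the inhibitors of cyclin-dependent kinases, Cdkn1a, the p53 target p21, rose, at 258, 261 and 266 CPM at day 1 against 421, 492 and 467 CPM at day 14 (log2 fold change 0.81 ± 0.07, adjusted p = 1.59e-07). It was the single riser of 8 tested, while 4 fell, among them Cdkn1b, p27 (-0.60 ± 0.12). Cdkn2a is not analysed here. Of 27 p53 target genes, 13 were higher and 1 lower, and the median log2 fold change was 0.26, so that falls made up 3.70% of the list and 26.1% of all genes. Mdm2, which degrades p53, stood at 191, 196 and 194 CPM at day 1 against 423, 480.0 and 443 CPM at day 14 (log2 fold change 1.21 ± 0.07, adjusted p = 1.27e-09). Phlda3 stood at 50.3, 50.6 and 53.4 CPM at day 1 against 181, 228 and 242 CPM at day 14 (log2 fold change 2.08 ± 0.11, adjusted p = 4.04e-10). Btg2, an antiproliferative factor, rose by 1.28 ± 0.11. In all 3 the groups lay well apart. Sesn1 fell (-0.84 ± 0.16), and 2 targets were lower without any one library of day 14.

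Stress programmes were divided. Of 15 heat shock and chaperone genes, 10 were higher and 2 lower (list median 0.44 on the log2 scale). Hsph1, a co-chaperone of Hsp70, stood at 94, 88.1 and 94.9 CPM at day 1 against 307, 286 and 311 CPM at day 14 (log2 fold change 1.71 ± 0.07, adjusted p = 4.45e-11). The small heat shock proteins Hspb8 (1.46 ± 0.07) and Hspb1 (1.22 ± 0.12) rose too. Hsp90ab1, the most abundant, fell (-0.41 ± 0.07), and was the single fall without replicate 2 or 3 of day 1 or replicate 2 of day 14. Genes of the unfolded protein and integrated stress response went both ways, 7 of 30 higher and 10 lower (4 higher without replicate 1 or 3 of day 1). These shares, 23.3% and 33.3%, lie near the 25.8% and 26.1% of all genes tested. The enzymes of serine and one-carbon metabolism in that list fell: Phgdh stood at 400.0, 404 and 437 CPM at day 1 against 214, 108 and 128 CPM at day 14 (log2 fold change -1.46 ± 0.19, adjusted p = 2.06e-05). Shmt2 (-1.27 ± 0.26) and Mthfd2 (-1.31 ± 0.19) fell too. Ddit3, the stress factor CHOP, stood at 69.9, 71.4 and 72.7 CPM at day 1 against 217, 79.9 and 86.8 CPM at day 14 (log2 fold change 0.85 ± 0.29, adjusted p = 0.0261). Most of that rise came from replicate 1 of day 14, without which the log2 fold change was 0.24 (adjusted p = 0.00719). The call was lost with no filter on low counts (0.114), with the WT libraries alone in the fit (0.0695) and without any one library of day 1 (0.0639 to 0.0708). Antioxidant genes of the factor NRF2 were split at 10 higher and 10 lower of 27. Hmox1, haem oxygenase, stood at 72.3, 76.2 and 79.6 CPM at day 1 against 155, 175 and 163 CPM at day 14 (log2 fold change 1.11 ± 0.09, adjusted p = 6.31e-08). Gclc, which starts glutathione synthesis, rose (1.12 ± 0.14). Sod3, the extracellular superoxide dismutase, fell, at 82.5, 88.9 and 92.2 CPM at day 1 against 8.45, 9.63 and 11 CPM at day 14 (log2 fold change -3.18 ± 0.12, adjusted p = 1.85e-11). Of 28 lysosome and autophagy genes, 12 were higher and 6 lower (7 higher without replicate 2 of day 1). Gpnmb, a glycoprotein of lysosomes, stood at 66.7, 64.9 and 65.8 CPM at day 1 against 498, 422 and 382 CPM at day 14 (log2 fold change 2.72 ± 0.13, adjusted p = 1.16e-10).

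The 3 NR4A receptors went different ways. Nr4a3 rose from below 5 CPM to above 200 CPM, at 4.61, 4.28 and 3.85 CPM at day 1 against 238, 256 and 217 CPM at day 14 (log2 fold change 5.80 ± 0.19, adjusted p = 5.49e-12), the eighth largest rise of abundant named genes. Nr4a2 stood at 82.9, 82.1 and 80.5 CPM at day 1 against 16.5, 21.3 and 25 CPM at day 14 (log2 fold change -1.97 ± 0.15, adjusted p = 2.49e-08). Nr4a1 stood at 54.7, 54.7 and 52.5 CPM at day 1 against 22.5, 33.6 and 41.6 CPM at day 14 (log2 fold change -0.73 ± 0.21, adjusted p = 0.0115). Both were lower in every day 14 library than in any of day 1, and Nr4a1 lost its call with no filter on low counts (adjusted p = 0.0533). Of the 24 immediate early transcription factors tested, 10 were higher and 9 lower (list median -0.06 on the log2 scale). Egr3 (-3.24 ± 0.20) and Egr1 (-1.05 ± 0.15), which respond to serum, fell, and Fosl2 (1.40 ± 0.13) and Ier5 (1.59 ± 0.09) rose. The NR4A response element AAAGGTCA was found on either strand in 1.16% of the promoters of the genes called higher and 0.947% of those called lower, against 1.7% of all promoters in the table and 1.19% of those of tested genes. The feedback genes of MAP kinase signalling were split: the phosphatases Dusp1 (1.45 ± 0.12) and Dusp8 (1.48 ± 0.14) rose, and the phosphatase Dusp6 (-1.53 ± 0.18) and the factor Etv5 (-1.90 ± 0.16), both targets of ERK signals, fell. Of 15 of them, 6 were higher and 6 lower.

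Wnt and Notch genes rose more often than they fell. Wnt proteins signal through Frizzled receptors, and Sfrp and Dkk proteins restrain them. Of 29 genes tested, 16 were higher and 7 lower, and the median log2 fold change was 0.46. Wnt4 stood at 5.54, 5.98 and 5.87 CPM at day 1 against 26.4, 55.3 and 56.3 CPM at day 14 (log2 fold change 2.98 ± 0.25, adjusted p = 1.95e-07). Wnt5a stood at 0.419, 0.425 and 0.397 CPM at day 1 against 7, 12.5 and 10.3 CPM at day 14 (log2 fold change 4.56 ± 0.26, adjusted p = 1.49e-09). For Wnt4, replicates 2 and 3 of day 14 lay well above replicate 1. The receptor Fzd2 rose (1.18 ± 0.12). The antagonist Sfrp4 fell, at 60.1, 65.2 and 66 CPM at day 1 against 1.1, 4.61 and 6.48 CPM at day 14 (log2 fold change -3.98 ± 0.40, adjusted p = 3.58e-06), as did Dkk2 (-2.24 ± 0.20) and the factor Tcf7 (-1.56 ± 0.12). Other antagonists were higher at day 14: Frzb had 0, 0 and 0 counts at day 1 against 36, 16 and 24 counts at day 14 (at least 35.9-fold higher, from 3 counts over the group) and Sfrp2 had 0, 0 and 0 counts at day 1 against 10, 7 and 9 counts at day 14 (at least 12.3-fold). Sfrp1 stood at 2.31, 2.16 and 2.89 CPM at day 1 against 2, 5.03 and 5.84 CPM at day 14 (log2 fold change 0.80 ± 0.32, adjusted p = 0.0471), with groups that overlapped and a call lost in 7 of the 14 alternatives, with adjusted p up to 0.238 without replicate 3 of day 14. Of 14 Notch genes, 8 were higher and 3 lower, and the median log2 fold change was 0.67. The ligand Jag2 (1.23 ± 0.12) and the target Hey1 (2.26 ± 0.31) rose, and the ligand Jag1 (-0.64 ± 0.11) fell. Notch3, the receptor of mature smooth muscle and pericytes, stood at 168, 188 and 183 CPM at day 1 against 48.4, 117 and 136 CPM at day 14 (log2 fold change -0.84 ± 0.27, adjusted p = 0.0194). That call was lost without replicate 2 of day 1 (adjusted p = 0.0535), with no filter on low counts (0.0681) and with the WT libraries alone in the fit (0.0664).

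Yap1, the coactivator restrained by the Hippo pathway, was among the 5 largest rises in CPM, at 981, 995 and 924 CPM at day 1 against 4137, 4716 and 4642 CPM at day 14 (log2 fold change 2.22 ± 0.08, adjusted p = 1.20e-11). Of 26 Hippo pathway and YAP target genes, 13 were higher and 3 lower, and the median log2 fold change was 0.34. Ctgf, given above, and Ankrd1, at 486, 513 and 484 CPM at day 1 against 1233, 1613 and 1563 CPM at day 14 (log2 fold change 1.57 ± 0.12, adjusted p = 2.98e-08), are known YAP targets. Wwtr1, which encodes the related coactivator TAZ, fell, at 284, 295 and 284 CPM at day 1 against 119, 108 and 124 CPM at day 14 (log2 fold change -1.30 ± 0.07, adjusted p = 6.90e-10). The upstream scaffold Wwc1 rose (1.65 ± 0.10), and the kinase gene Stk3 fell (-0.45 ± 0.07).

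Growth factors and receptors went both ways, 12 of 33 higher and 11 lower. Igfbp2, a carrier of insulin-like growth factors, stood at 39, 43.1 and 45.3 CPM at day 1 against 488, 566 and 711 CPM at day 14 (log2 fold change 3.79 ± 0.13, adjusted p = 3.80e-12). Fgfr2 went from below 1 CPM to about 30 CPM, at 0.671, 0.743 and 0.991 CPM at day 1 against 26.4, 33.2 and 28 CPM at day 14 (log2 fold change 5.17 ± 0.21, adjusted p = 3.04e-11). Nrg1, neuregulin, rose (1.38 ± 0.09). Fgf2 (-1.59 ± 0.13) and Vegfc (-1.15 ± 0.18) fell. Of 10 regulators of G protein signalling, 6 were higher and 2 lower. Rgs1 stood at 0.168, 0.106 and 0.0397 CPM at day 1 against 36.8, 43 and 35.7 CPM at day 14 (log2 fold change 8.45 ± 0.33, adjusted p = 1.85e-11). Rgs17 (-2.24 ± 0.13) and Rgs3 (-1.21 ± 0.13) fell. Of 26 vasoactive peptides, receptors and channels, 11 were higher and 9 lower. Calcrl, the receptor for calcitonin gene-related peptide and adrenomedullin, was among the 10 largest falls, at 43.9, 41.5 and 45.8 CPM at day 1 against 2.25, 2.58 and 2.97 CPM at day 14 (log2 fold change -4.07 ± 0.17, adjusted p = 4.10e-11). The prostaglandin receptor Ptgfr fell (-2.39 ± 0.24), and Ptger2 (2.39 ± 0.17) rose. Axon guidance genes also divided, 10 of 33 higher and 14 lower (30.3% and 42.4%, against 25.8% and 26.1% of all genes). Nrp1, neuropilin, stood at 107, 109 and 108 CPM at day 1 against 24.4, 28.5 and 27.4 CPM at day 14 (log2 fold change -2.01 ± 0.08, adjusted p = 2.87e-11). Sema3c stood at 100, 99.5 and 102 CPM at day 1 against 226, 414 and 441 CPM at day 14 (log2 fold change 1.84 ± 0.20, adjusted p = 4.33e-06). Nrp1 binds class 3 semaphorins, the family of Sema3c.

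Hox genes keep a record of position along the body. Of 26 tested, 8 were higher and 6 lower (list median 0.05 on the log2 scale), with 5 higher without replicate 2 of day 1. Hoxc13 stood at 9.94, 10.7 and 10.7 CPM at day 1 against 60.7, 54.7 and 56.2 CPM at day 14 (log2 fold change 2.46 ± 0.09, adjusted p = 1.20e-11) and Hoxc11 at 37.9, 40.1 and 37 CPM at day 1 against 87, 102 and 94.8 CPM at day 14 (log2 fold change 1.30 ± 0.10, adjusted p = 3.42e-08). Hoxa9 stood at 92.9, 92.9 and 96.2 CPM at day 1 against 48.6, 59.2 and 64.5 CPM at day 14 (log2 fold change -0.71 ± 0.09, adjusted p = 9.77e-06). For each of these 3 genes the groups did not overlap. The clusters did not move as wholes: within the C cluster Hoxc11, Hoxc12 (3.43 ± 0.48) and Hoxc13 were higher, Hoxc5, Hoxc6 and Hoxc8 lower, and Hoxc4, Hoxc9 and Hoxc10 were not called. Antisense transcripts lie in these clusters, and the use of strand in the counting is not given in the sources used here.

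Among abundant named genes, the remaining large changes had no list in common. Nlrp2, an inflammasome-family protein of early development, stood at 4.82, 5.7 and 4.76 CPM at day 1 against 172, 422 and 481 CPM at day 14 (log2 fold change 6.13 ± 0.39, adjusted p = 1.39e-07). Stmn2, a microtubule-destabilising protein of neurons, stood at 231, 227 and 233 CPM at day 1 against 5.05, 10.9 and 11.6 CPM at day 14 (log2 fold change -4.66 ± 0.28, adjusted p = 3.03e-08). Groups that do not overlap were a condition for the ranking that names these genes, so they add no support. Mctp2 (-4.20 ± 0.20) and Srpx2 (-3.79 ± 0.17) were also among the 10 largest falls. The 5 largest rises in CPM were those of CT010467.1, Gm23935, Yap1, Dcun1d5 (1.94 ± 0.08) and Tmem123 (1.16 ± 0.07), and the 5 largest falls those of Fn1, mt-Cytb, Vim (-1.25 ± 0.09), Col3a1 and Scd2. Gm23935 stood at 205, 131 and 125 CPM at day 1 against 6825, 6884 and 3290 CPM at day 14 and is annotated as a miRNA. Vim encodes vimentin, the filament of mesenchymal cells.

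Markers of other cell types moved in part. Of 12 adventitial fibroblast markers tested, 1 was higher (2 without replicate 1 of day 14) and 9 lower, and their summed level was 1227 to 1291 CPM at day 1 and 782 to 1224 CPM at day 14. Cd34 stood at 84.1, 81.1 and 83.4 CPM at day 1 against 34.5, 43.1 and 40.2 CPM at day 14 (log2 fold change -1.08 ± 0.11, adjusted p = 1.01e-06). Cd248, Pi16 and Serping1 fell to below 1 CPM, and Dpt had 17, 9 and 20 counts at day 1 against 1, 0 and 0 counts at day 14, a ratio of 32.4 with an interval of 5.54 to 1308 from counting error in favour of day 1. The riser was Ly6a (0.44 ± 0.13), and Pdgfra fell by little (-0.42 ± 0.12), a call lost with library size alone (adjusted p = 0.0532). Whether fewer such cells took part in the falls of matrix genes was not tested. Of 7 pericyte markers, 3 were higher and 2 lower (1 lower without replicate 2 of day 1). Abcc9 and Kcnj8, the subunits of a vascular potassium channel, rose from near 0, with Abcc9 at 0, 1 and 0 counts at day 1 against 82, 177 and 226 counts at day 14, a ratio of 688 with an interval of 123 to 27227 from counting error. Kcnj8 stood at 0.21, 0.106 and 0.119 CPM at day 1 against 2.5, 8.03 and 4.26 CPM at day 14 (log2 fold change 5.03 ± 0.53, adjusted p = 1.12e-06). Cspg4, NG2, fell, at 29.4, 33.9 and 33.1 CPM at day 1 against 8.15, 7.05 and 6.73 CPM at day 14 (log2 fold change -2.13 ± 0.13, adjusted p = 3.16e-09).

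Of 3 adipocyte markers all were higher. Fabp4, a fatty acid carrier, stood at 0.378, 0.177 and 0.0397 CPM at day 1 against 12.1, 16.5 and 21.7 CPM at day 14 (log2 fold change 6.39 ± 0.40, adjusted p = 3.85e-09, and 7.14 without replicate 1 of day 1). Pparg stood at 16.2, 16.6 and 15.7 CPM at day 1 against 25.6, 29.2 and 28.1 CPM at day 14 (log2 fold change 0.77 ± 0.14, adjusted p = 3.64e-04). The other 6 of 9 listed adipocyte markers were not tested. Endothelial markers stayed low, between 13.8 and 16.3 CPM in sum at day 1 and 9.8 and 10.6 CPM at day 14; Cdh5 fell (-1.23 ± 0.17). Kdr had 1, 1 and 1 counts at day 1 against 20, 21 and 16 counts at day 14, a ratio of 26.9 with an interval of 8.77 to 135 from counting error, and Vwf rose (1.94 ± 0.53) at no more than 2.37 CPM. No T or B cell marker was tested, and these summed to at most 1.26 CPM. Of 14 macrophage markers 4 were tested, of which Cd68 (1.39 ± 0.17), Csf1r (1.33 ± 0.41) and Lyz2 (1.60 ± 0.55) were higher and Cd14 (-0.79 ± 0.10) lower. Csf1r lost its call without replicate 1 of day 1 (adjusted p = 0.0521) or replicate 3 of day 14 (0.0524), and 1 macrophage marker was higher without the former. Lyz2 lost its call without replicate 1 of day 14 (log2 fold change 0.67, adjusted p = 0.334) or replicate 1 or 2 of day 1 (0.0758 and 0.084). The call of Lyz2 was also lost with limma-voom (0.0563) and with the WT libraries alone in the fit (0.0605).

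The mesothelial marker Krt19 fell, at 70.8, 70.4 and 66.1 CPM at day 1 against 12.8, 15.8 and 18.3 CPM at day 14 (log2 fold change -2.15 ± 0.16, adjusted p = 3.13e-08), and Krt8 rose (2.46 ± 0.25), with 2 mesothelial markers higher without replicate 1 of day 14. The glial markers Mbp (1.63 ± 0.23) and Ngfr (1.75 ± 0.43, and 1.08 without replicate 1 of day 14) rose and Ncam1 (-0.95 ± 0.09) and Pmp22 (-0.55 ± 0.15) fell. These keratins and glial genes were below 20 CPM except for Krt19, Ncam1 and Pmp22. Col11a2, the one chondrocyte marker tested, rose, at 2.64, 2.51 and 2.22 CPM at day 1 against 26.2, 30.9 and 23.8 CPM at day 14 (log2 fold change 3.45 ± 0.25, adjusted p = 1.78e-08), and 2 such markers were higher without any one library except replicate 2 of day 1. Of the blood markers, Hba-a1 fell (-4.31 ± 0.62) and the platelet chemokine Ppbp rose (2.31 ± 0.19), with 2 higher without replicate 1 of day 14. The epithelial marker Krt7 rose (2.89 ± 0.54, and 2.17 without replicate 3 of day 14) at no more than 3.42 CPM. Xist, the transcript of the inactive X chromosome, was present in all 6 WT libraries, at 1776, 1702 and 1668 CPM at day 1 against 1414, 1251 and 1229 CPM at day 14, and Ddx3y, on the Y chromosome, had 1, 0 and 0 counts at day 1 against 1, 0 and 0 counts at day 14.

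Called genes lay next to each other in places. In the RefSeq gene order of GRCm38.p6, 14473 of the tested genes could be placed, and 10 runs of at least 8 neighbouring tested genes were called in the same direction with a median change of at least 1 on the log2 scale, 101 genes in all. Of these runs, 9 were higher and 1 lower. The Oas cluster on chromosome 5, from Ddx54 to Ptpn11, held 11 genes with a median of 7.22, and the Ifi200 family on chromosome 1 lay in a run of 16 genes with a median of 2.14. The class II and Tap region of chromosome 17, from Rxrb to Tap2, gave 8 genes with a median of 2.64, among them Psmb8, Psmb9 and Tap1 and the cartilage collagen Col11a2. The Serpinb9 cluster of chromosome 13 (8 genes, median 2.20), like the Oas1 and Ifi200 families, holds near-identical copies among which reads can be shared. Another run on chromosome 5, from 1700096K18Rik to Gm7361, held 11 genes with a median of 6.33, 8 of them with predicted names. The single lower run lay on the X chromosome, from Lancl3 to Mid1ip1 (8 genes, median -1.12).

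The run around Yap1 on chromosome 9 held 12 genes with a median of 2.21, from Mmp27 to Gm46102, among them Tmem123, Birc2, Birc3, Cep126 and Pgr. Birc2, an inhibitor of apoptosis, stood at 391, 401 and 396 CPM at day 1 against 1343, 1667 and 1660 CPM at day 14 (log2 fold change 1.98 ± 0.11, adjusted p = 7.39e-10). Birc3, its paralogue, stood at 0.461, 0.318 and 0.159 CPM at day 1 against 3.95, 4.68 and 3.91 CPM at day 14 (log2 fold change 3.72 ± 0.32, adjusted p = 1.42e-07). Yap1, Tmem123 and Birc2 rose by 1.16 to 2.22 on the log2 scale, with Birc3 between Birc2 and Yap1, and each of the 3 was above 900 CPM in every day 14 library. On the Mmp side, Mmp27, Mmp20, Mmp10, Mmp1a, Mmp1b and Mmp12 were higher, Mmp3 and Mmp8 (-0.53 ± 0.16) lower, and Mmp13 was not called.

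**Figure D4:**
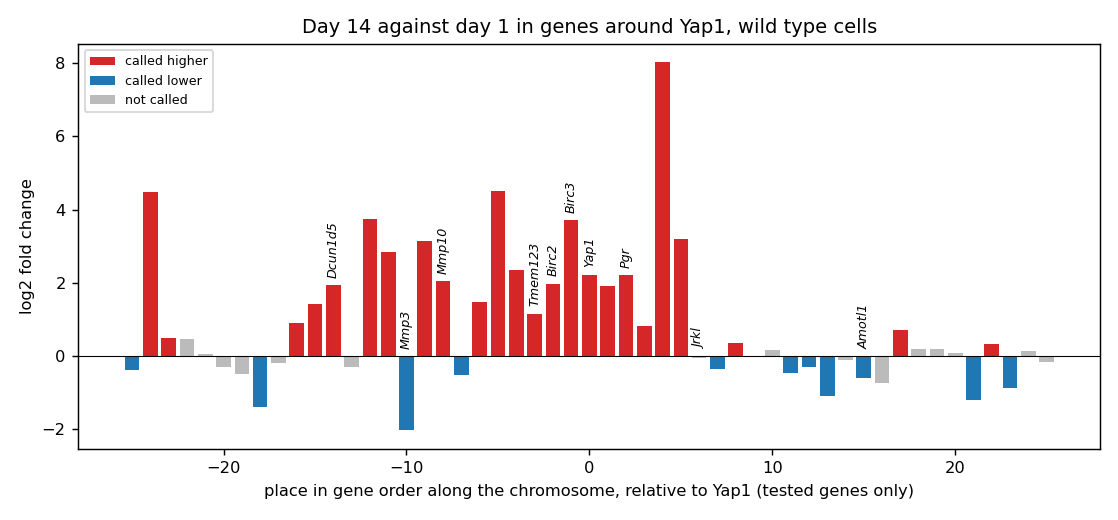
Log2 fold change of day 14 over day 1 in WT (y axis) for tested genes in order along the chromosome, from 25 places before to 25 places after Yap1 (x axis); red bars were called higher, blue lower and grey not called. From Mmp27, 6 places before Yap1, to Gm46102, 5 places after it, all 12 bars are red.

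The change between days in WT was set beside that in KO, to see which part of it the genotypes had in common. In the same fit 9583 of 15973 genes (60.0%) had a change between days that differed between WT and KO. Genes called in both genotypes went in opposite directions in 3967 cases and in the same direction in 1231. KO at day 14 and KO at day 1 are other libraries than those of WT, but day and table coincide in both. The possible exchange of tables or columns, given above, bears on these counts too and was not tested.

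Of the 22 tested genes that were followed whatever their result, 18 had a change that differed. Nr4a3 rose in both, by 5.80 ± 0.19 in WT and 4.57 ± 0.20 in KO (difference 1.23 ± 0.29, adjusted p = 0.0018). Acta2 rose by 1.26 ± 0.11 in WT and 1.29 ± 0.11 in KO, a difference that did not pass (-0.03 ± 0.16, adjusted p = 0.901). Alpl rose in WT (8.30 ± 0.48) and fell in KO (-3.49 ± 0.32; difference 11.79 ± 0.58, adjusted p = 1.31e-10). Mgp went the other way, -4.39 ± 0.21 in WT and 3.30 ± 0.18 in KO (difference -7.69 ± 0.27, adjusted p = 2.88e-12). For Lox the changes were -2.12 ± 0.25 and 4.29 ± 0.27 (difference -6.41 ± 0.37, adjusted p = 1.49e-08), and for Yap1 2.22 ± 0.08 and -2.61 ± 0.08 (difference 4.83 ± 0.12, adjusted p = 4.99e-14). The lactate dehydrogenase Ldha fell in WT (-0.92 ± 0.12) and rose in KO (1.70 ± 0.13; difference -2.62 ± 0.18, adjusted p = 5.43e-09). Cdkn1a rose in WT (0.81 ± 0.07) and fell in KO (-1.30 ± 0.07; difference 2.12 ± 0.10, adjusted p = 9.31e-11). The sign was thus opposite in 6 of the 8 genes named here, all but Nr4a3 and Acta2. These 8 are a selection from the 22. Opposite signs were also usual among all genes called in both genotypes, at 3967 against 1231 in the same direction.

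**Figure D5:**
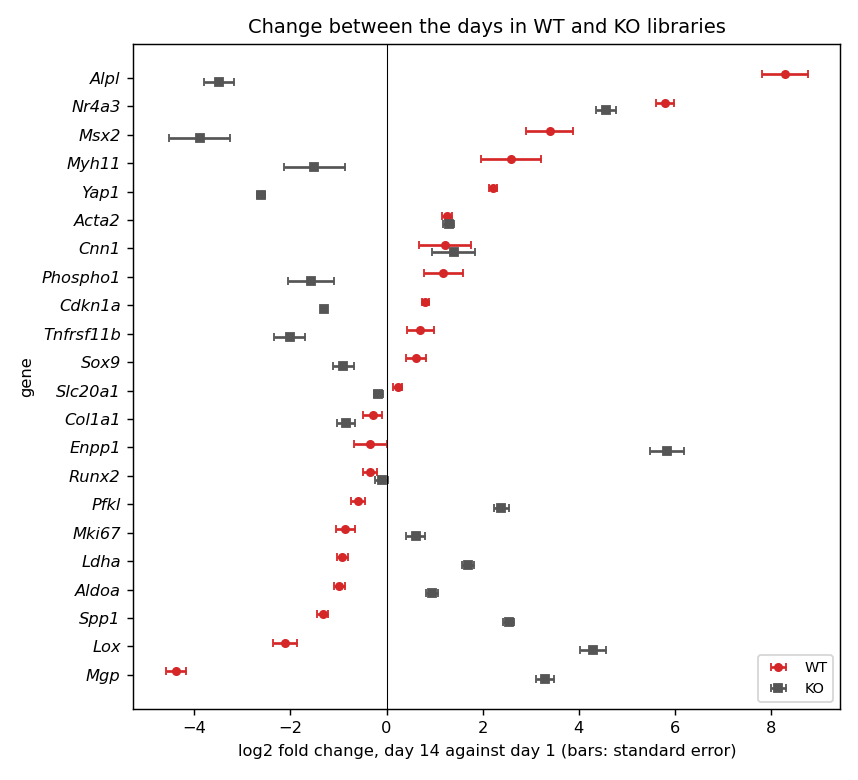
Log2 fold change of day 14 over day 1 (x axis, bars of 1 standard error) for the 22 tested genes followed whatever their result, in WT (red circles) and KO (grey squares), 3 libraries per group and day. Alpl stands at 8.30 in WT and -3.49 in KO, Mgp at -4.39 and 3.30, while Nr4a3 stands at 5.80 and 4.57.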

How the data were processed

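RNA sequencing counts of cells labelled as aortic smooth muscle were used, 3 libraries for each of WT and KO at day 1 and day 14. The authors deposited 1 table of raw counts per gene for each day. The build is mm9 per the submitters' processing notes; the sources used here name no aligner, annotation or strand setting. Repeated lines were removed (43 at day 1 and 53 at day 14), as were 2 names per table with differing counts, and 24 date-like names in each table were kept as they stand. Tables were joined over their 26728 shared names, of which 98.2% are in GENCODE M21.

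Counts of all 12 libraries were fitted with edgeR 4.0.16 (robust quasi-likelihood, TMM scaling, filterByExpr) in R 4.3.3, with a contrast of WT at day 14 against day 1 and an interaction term for KO. The shared fit lets 4 groups estimate the spread. On simulated data for 15557 genes, 74.6% of 2-fold changes in WT were recovered, 95.5% of 4-fold changes and 55.2% of 1.5-fold changes, with 5.06% false among the calls. That simulation changed 200 genes, all above 1 CPM and in WT at day 14 alone. In the data 8286 of 15973 genes were called, so these rates need not hold for them. Intervals of count ratios are at 95% and cover counting error only. Alternatives were DESeq2 1.42.0, limma-voom 3.58.1, other scalings and filters, a replicate block, the WT libraries alone, and leaving out each WT library.

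Genes are named by rule: 24 genes whatever their result; the 10 largest rises and falls by log2 fold change among called genes of mean log2 CPM of at least 3 with groups that do not overlap, predicted names passed over; the 5 largest in CPM; up to 3 per list and direction with mean log2 CPM of at least 1; and the called members of marker lists. Outside this rule, and picked after their values were seen, are Acvrl1, Ankrd1, B2m, Birc2, Birc3, Bmpr1a, Bmpr1b, C3, C4b, Cfb, Col4a5, Ddx3y, Des, Fasn, Flna, Frzb, Gata6, Gbp2, Hif1a, Hmgcs1, Hoxc12, Id1, Id2, Id4, Ifnb1, Irf1, Irf7, Isg15, Itga11, Mdm2, Mmp8, Myocd, Nog, Nr4a1, Pdk3, Pecam1, Psmb8, Psmb9, Ptprc, Sfrp1, Sfrp2, Slc2a1, Smad1, Smad9, Srebf1, Srebf2, Stat2, Xist, the heart muscle genes and the members and neighbours of gene runs. Hey2 and Igf1, given among the other observations, are likewise outside the rule and were picked after their values were seen. The genes and lists were chosen with earlier results of these data known. Promoter sequences and gene order are from RefSeq (GRCm38.p6), and no coordinate was converted. Some genes that the rule would name are not reported here.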

Additional observations from a re-analysis of the deposited data

Results flagged for a closer look

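A change between days that differed between WT and KO by the interaction term was found for 9583 genes in all, and for 18 of the 22 tested genes followed whatever their result. Each difference is the WT log2 fold change minus the KO one. It was positive for Alpl (11.79), Msx2 (7.28), Yap1 (4.83), Myh11 (4.09), Phospho1 (2.75), Tnfrsf11b (2.72), Cdkn1a (2.12), Sox9 (1.51), Nr4a3 (1.23) and Slc20a1 (0.41). It was negative for Mgp (-7.69), Lox (-6.41), Enpp1 (-6.17), Spp1 (-3.87), Pfkl (-2.99), Ldha (-2.62), Aldoa (-1.93) and Mki67 (-1.47). Day and table coincide in both genotypes, and an exchange of tables or columns remains possible.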

How the results depend on the processing

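Over the 14 alternatives, the numbers of genes called stayed within 1.5 times of those reported. Leaving out 1 library gave 7105 to 9051 called genes, 3510 to 4495 of them higher and 3595 to 4556 lower, and the other settings gave 7217 to 8452, 3715 to 5269 and 3139 to 4393. The genes with a change that differed between WT and KO numbered 9033 to 10498 without 1 library and 9062 to 10164 otherwise. Of the named genes, the single reversed direction was that of Enpp1, which was not called, at 0.12 without replicate 1 of day 14 and -0.81 without replicate 3. The replicate block gave 8200 called genes, of which 8059 were called in the same direction without it. It ended the calls of Ddit3 (adjusted p = 0.0553), Tnfrsf11b (0.0529) and Irf1 (0.0544) and added that of Runx2 (0.0366). Deviations of same-numbered libraries correlated at 0.04, 0.02 and 0.04, so the numbers were not taken as pairs. Library size alone moved 11 list counts by over 1.5 times, leaving out 1 library moved 4 to 12, and the other settings moved at most 7. The 7 under the WT libraries alone were 3 contractile genes lower, 0 integrin subunits higher, 1 replication gene higher and 1 lower, and 1 heat shock gene, 1 smooth muscle marker and 1 pericyte marker lower. Depth limits genes near 0 CPM, where a change rests on few counts.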

Other observations

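The change in WT was uneven among chromosomes in the RefSeq order. On chromosome 5, 935 tested genes had a median log2 fold change of 0.30, with 45.6% called higher and 12.8% lower. On chromosome 14, 481 tested genes had a median of -0.27, with 15.4% higher and 43% lower. Genes of a chromosome are not independent replicates, and the values are given as a description.

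A few genes outside the lists' leading members were called higher from 0 or near 0 counts at day 1. The 3 named here stayed below 10 CPM at day 14. In all, 69 genes at 0 counts in all 3 day 1 libraries were called higher and 8 genes at 0 counts in all 3 day 14 libraries lower. Such genes entered the test only through reads in other groups, and their direction was fixed in advance. The tested genes at 0 counts were not counted, so these numbers are a description only. Sfrp2, a secreted Wnt antagonist, had 0, 0 and 0 counts at day 1 against 10, 7 and 9 counts at day 14, at least 12.3-fold higher against a floor of 3 counts over the group. Igf1, insulin-like growth factor, stood at 0.0839, 0 and 0.119 CPM at day 1 against 2.5, 7.05 and 8.66 CPM at day 14 (log2 fold change 6.41, and 5.80 and 7.07 without replicates 2 and 3 of day 1). Hey2, a Notch target, stood at 0.126, 0.106 and 0.0397 CPM at day 1 against 2.35, 0.209 and 1.19 CPM at day 14 (log2 fold change 3.74, and 2.96 without replicate 1 of day 14). All 3 were picked after their values were seen.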
